A study of Mus musculus with 5 samples.

Results

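Class I antigen processing genes supply the peptides that MHC class I molecules show at the cell surface. The set held 10 genes, chosen by name: the inducible proteasome subunits Psmb8, Psmb9 and Psmb10, the proteasome activator subunits Psme1 and Psme2, the peptide loading genes Tap1, Tap2, Tapbp and B2m, and the class I transactivator Nlrc5. Each was read from all probe sets that the platform annotation gives to that gene alone. This held for 9 of the 10 genes and 15 probe sets, of 18193 genes with such a probe set and 45037 probe sets in all; the probe set of Psme2 is shared with its close relative Psme2b.

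The arrays came from long-term haematopoietic stem cells (LT-HSCs) sorted as LSK IL7Ra-Flt3-CD150+CD48- cells from C57BL/6 mice of 4 weeks. The question was how the transcriptome of these cells changes without LRF, a zinc finger repressor and the product of Zbtb7a. Knockouts were Zbtb7a Flox/Flox Mx1-Cre+ (3 arrays) and controls Zbtb7a Flox/+ Mx1-Cre+ (2 arrays). Mice of both groups carried Mx1-Cre, which is switched on by interferon, and both received pIpC, a double-stranded RNA analogue that raises interferon, as 2 injections of 250 µg. Sorting followed on day 9 after the first of them. The controls were heterozygous for the floxed allele, and no group was without Cre or pIpC. The label of knockout replicate 3 names more than 1 animal, so that array may be a pool. Values below are log2 intensities from RMA, which fits all arrays to the same distribution.

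Class I processing starts in the proteasome, where interferon-inducible catalytic subunits replace constitutive ones and favour peptides that fit class I molecules. The PA28 activator, a ring of the products of Psme1 and Psme2, opens the proteasome core. The TAP transporter, a heterodimer of TAP1 and TAP2, pumps the peptides into the endoplasmic reticulum, where tapasin (Tapbp) helps to load them onto a heavy chain bound to beta-2 microglobulin (B2m). NLRC5 is a transactivator of class I genes and of several genes of this pathway, and interferons induce most of these genes together.

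Here and below, each gene is read by its brightest single-gene probe set unless another is named. Psmb8, Psmb9, Psmb10, Psme1 and Tap1 kept the same order over the arrays, and that order cut across genotype. Tap2, Tapbp, B2m and Nlrc5 each departed from it in part. In knockout arrays 8 of the 9 measured genes averaged higher than in controls, as did 5600 of all 12813 genes tested. The median log2 difference was 0.27 for the 9 genes, against -0.030 over all genes tested. None passed the test (0 of 9 by limma at an adjusted p under 0.05, with 0 of 9 at an unadjusted p under 0.05). The same test called 0% of all 27022 probe sets, of which 306 (1.13%) had an unadjusted p under 0.05. The groups overlapped for all 9 genes, whereas 2.68% of genes were higher in every knockout array than in both controls and 4.5% were lower. Instead, knockout replicate 1 was the highest of the 5 arrays for 8 of 9 genes (14.4% of all genes). Control replicate 1 was the lowest for 8 of 9 (13.8% of all genes). The dimmer tested probe sets of Psmb8, Tapbp and B2m were not lowest there. That of Psmb8 was lowest in knockout replicate 2, and those of Tapbp and B2m in knockout replicate 3.

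**Figure D1:**
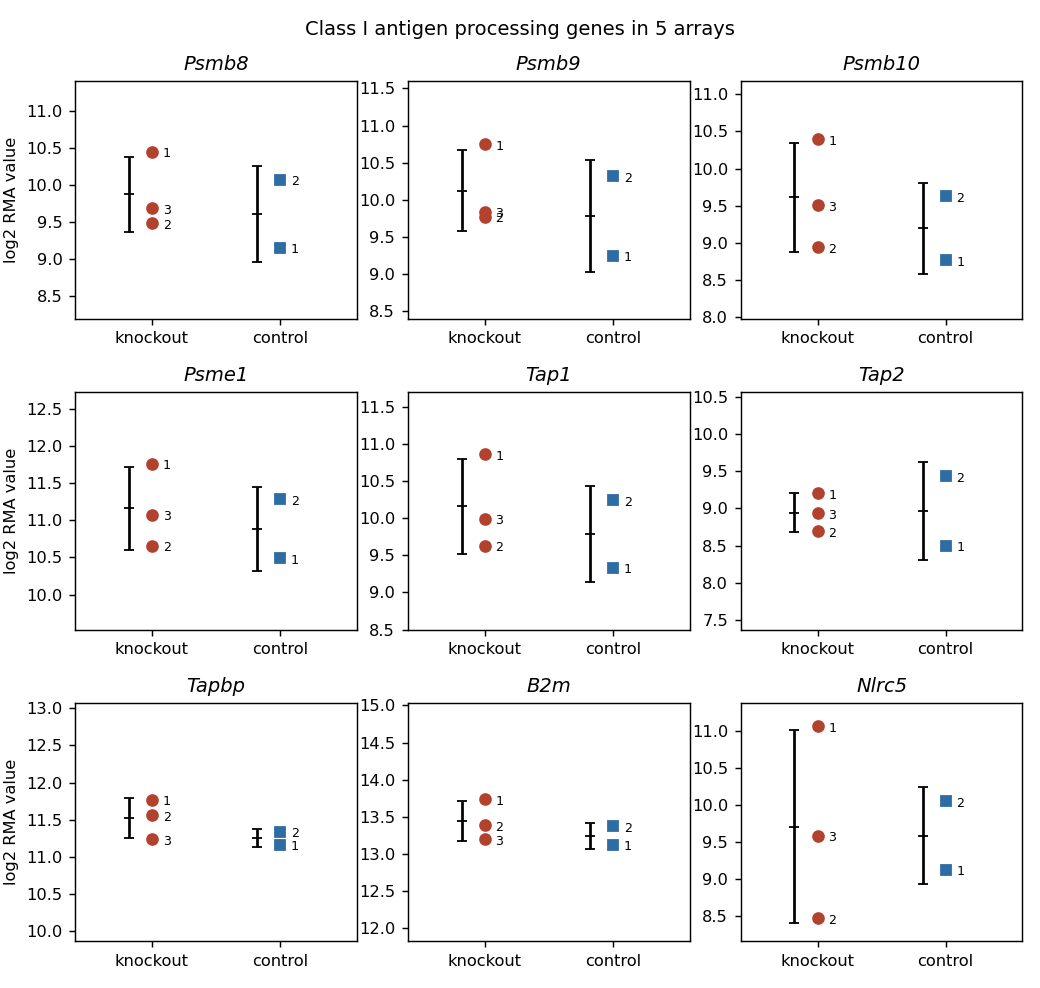
Log2 RMA value (y axis, the same span in each panel) of the brightest single-gene probe set of 9 class I processing genes in 3 knockout arrays (circles) and 2 control arrays (squares), numbered by replicate; black bars are mean ± SD. For all 9 genes the groups overlap, and in all but Tap2 the knockout replicate 1 array is the highest.

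Among the inducible subunits, Psmb8, the chymotrypsin-like subunit that takes the place of Psmb5, read 10.44, 9.48 and 9.68 in knockout replicates 1, 2 and 3, against 9.15 and 10.07 in control replicates 1 and 2. Knockout replicates 2 and 3 lay between the controls. The difference was 0.26 (SE 0.43; 95% interval -0.86 to 1.38). Psmb9, which takes the place of Psmb6, had 10.75, 9.77 and 9.84 in knockouts, against 9.25 and 10.31 in controls. This is the same order at both ends, with a difference of 0.34 (SE 0.47; 95% interval -0.90 to 1.58). Psmb10, which takes the place of Psmb7, had the largest difference of the 9 genes, 0.42 or 1.34-fold (SE 0.52; 95% interval -0.95 to 1.79). It read 10.40, 8.94 and 9.51 in knockouts, against 8.76 and 9.63 in controls, so that once more only knockout replicate 1 lay outside the range of the controls. The dimmer probe set of Psmb8 differed by 0.17 (SE 0.48). It read 7.80, 6.49 and 7.47 in knockouts, against 6.73 and 7.43 in controls, so it did not keep the order of the brighter one.

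Of the activator, Psme1 encodes the alpha subunit of PA28. It read 11.76, 10.66 and 11.08 in knockouts, against 10.49 and 11.28 in controls, a difference of 0.28 (SE 0.43; 95% interval -0.84 to 1.40). The probe set shared by Psme2, the beta subunit, and Psme2b read 11.28, 10.83 and 10.31 in knockouts, against 10.26 and 10.76 in controls. Its difference was 0.30 (SE 0.35), and it cannot be assigned to either gene.

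Tap1 and Tap2 encode the transporter. Tap1 read 10.86, 9.63 and 9.99 in knockouts, against 9.33 and 10.24 in controls, a difference of 0.37 or 1.29-fold (SE 0.48; 95% interval -0.89 to 1.64). Another 3 probe sets of Tap1 were near background (means below 5.77, the level under which 40% of probe sets fell) and were not tested. Tap2 was the gene with a lower mean in knockouts, by -0.021 (SE 0.34; 95% interval -0.92 to 0.87). Its values were 9.21, 8.69 and 8.93 in knockouts, against 8.50 and 9.43 in controls. All 3 knockout arrays lay within the range of the controls.

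The 2 remaining loading genes varied least. Tapbp read 11.77, 11.56 and 11.24 in knockouts, against 11.16 and 11.33 in controls, a difference of 0.27 (SE 0.21; 95% interval -0.28 to 0.83). Knockout replicates 1 and 2 were above both controls, but replicate 3 was not. The dimmer Tapbp probe set differed by -0.066 (SE 0.39) and was lowest in knockout replicate 3, so the probe sets of this gene disagree in sign. B2m, the invariant light chain of class I molecules, read 13.74, 13.39 and 13.20 in knockouts, against 13.12 and 13.37 in controls. It differed by 0.20 (SE 0.22; 95% interval -0.38 to 0.77), and the second probe set by 0.085 (SE 0.21). That probe set was lowest in knockout replicate 3, at 11.88, against 12.05 and 12.12 in controls.

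Nlrc5 varied most. Its values were 11.06, 8.48 and 9.58 in knockouts, against 9.13 and 10.05 in controls. Knockout arrays thus held both the highest and the lowest value, with a span of 2.59 on the log2 scale, and the difference of 0.12 (SE 0.83) had a 95% interval of -2.06 to 2.30. By brightest probe sets, Nlrc5 alone of the 9 genes had knockout replicate 2 below both controls. The dimmer Psmb8 probe set was below both there too, at 6.49 against 6.73 and 7.43.

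**Figure D2:**
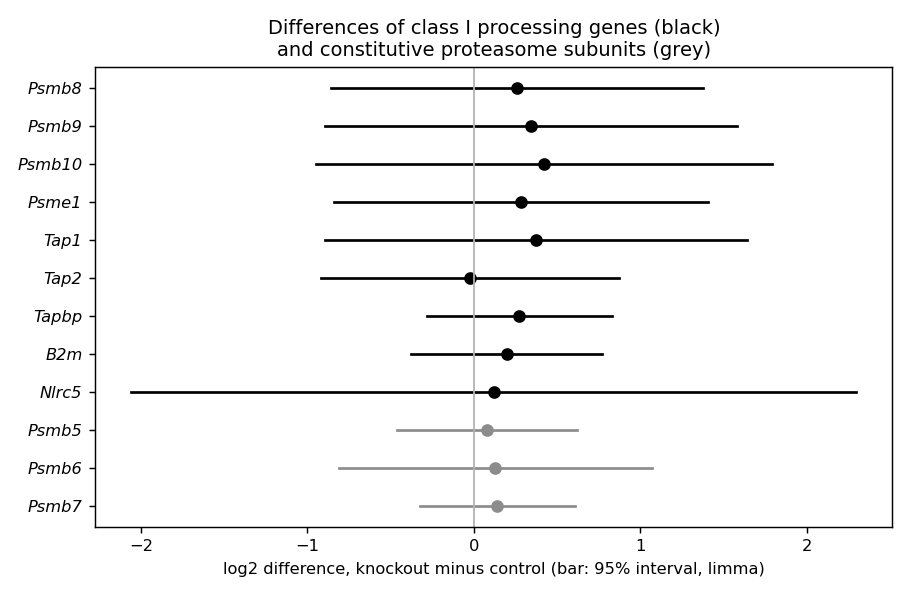
Log2 difference, knockout minus control (x axis, points), with 95% intervals of the limma fit (bars), for 9 class I processing genes (black) and the 3 constitutive catalytic subunits that the inducible ones replace (grey). Every interval includes 0; the widest is that of Nlrc5, -2.06 to 2.30.

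Differences between arrays of the same genotype were larger than the difference between genotypes. Control replicate 2 read higher than control replicate 1 for 9 of 9 genes (7211 of all 12813 genes). The median gap was 0.91, against 0.30 over all genes. That gap exceeded the difference between the groups for 8 of 9 genes, Tapbp being the exception; over all genes this held for 71.8%. Centred on the mean of its own 5 arrays, the median gene of the set stood at 0.71, -0.28 and -0.076 in knockout replicates 1, 2 and 3, and at -0.57 and 0.23 in control replicates 1 and 2. The median SD over 5 arrays was 0.51 for the 9 genes and 0.29 for all genes.

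**Figure D3:**
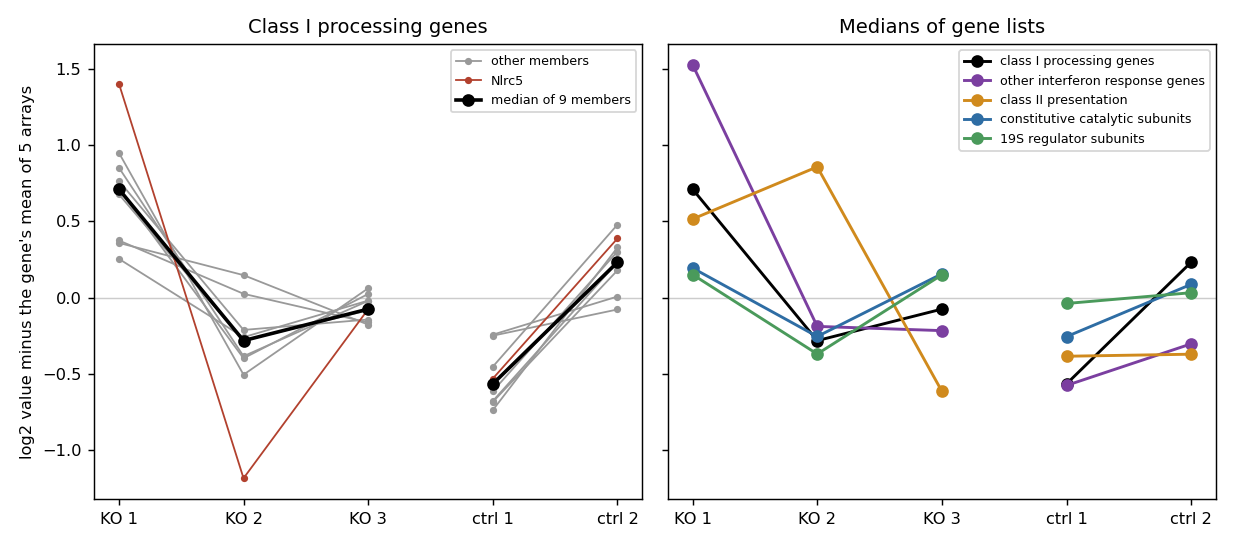
Log2 value minus the mean of the same gene over 5 arrays (y axis) in each knockout (KO) and control (ctrl) array, for 9 class I processing genes and their median (left), and as medians of 5 gene lists (right); lines only join points of a group. The class I median is 0.71 in knockout replicate 1 and -0.57 in control replicate 1, and Nlrc5 stands at -1.18 in knockout replicate 2.

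The sign of the group difference rested on single arrays. Without knockout replicate 1 the median difference over the 9 genes was 0.020 and 5 genes stayed positive, and Nlrc5 stood at -0.56. Without control replicate 1 it was -0.12, with 2 genes positive (Tapbp and B2m, named after their values were seen). It was 0.51 without knockout replicate 2 and 0.68 without control replicate 2, with all 9 genes positive in each case. In each of these limma fits 0 of the 9 genes passed.

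**Figure D4:**
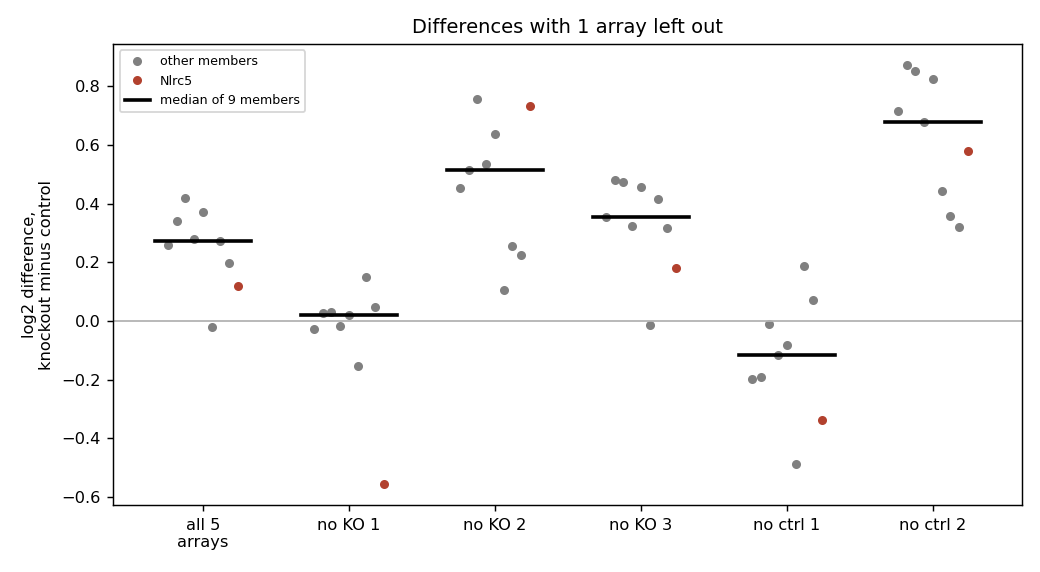
Log2 difference, knockout minus control (y axis), of 9 class I processing genes (points) and their median (bars) with all 5 arrays and with each array left out (x axis). The median is 0.27 with all arrays, 0.020 without knockout replicate 1 and -0.12 without control replicate 1.

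Promoter sequences are shown for 4 genes because these windows hold matches to short motif cores. Through motifs of these kinds, interferon and related signals are known to act on class I genes. RefSeq windows (GRCm38.p6, 250 bases before to 50 after the start of the gene) were at hand for 8 of the 10 genes; Tap2 and Nlrc5 had none. Both strands were searched for GAAANNGAAA (the core of the interferon-stimulated response element), TTCNNNGAA (the core of the gamma-activated sequence), TGACG (the X2 or CRE core) and GGGANNNNCC (the kappaB core). Capitals mark matches in the stretch from -150 to 30 around the start site, written 5′ to 3′ on the strand of the gene, which for all 4 is the plus strand.
B2m, chr2:122147537-122147716: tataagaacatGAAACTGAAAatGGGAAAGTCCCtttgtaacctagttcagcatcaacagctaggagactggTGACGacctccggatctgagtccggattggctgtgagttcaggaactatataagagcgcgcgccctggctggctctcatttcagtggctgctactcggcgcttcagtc
Psme1, chr14:55578344-55578523: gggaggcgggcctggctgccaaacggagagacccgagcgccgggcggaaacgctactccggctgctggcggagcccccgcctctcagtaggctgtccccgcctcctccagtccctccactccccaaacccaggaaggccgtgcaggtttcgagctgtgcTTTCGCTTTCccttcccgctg
Tap1, chr17:34187406-34187585: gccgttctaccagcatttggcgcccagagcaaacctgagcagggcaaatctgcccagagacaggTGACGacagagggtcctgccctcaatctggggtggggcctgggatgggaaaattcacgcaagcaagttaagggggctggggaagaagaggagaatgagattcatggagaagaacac
Psmb8, chr17:34198045-34198224: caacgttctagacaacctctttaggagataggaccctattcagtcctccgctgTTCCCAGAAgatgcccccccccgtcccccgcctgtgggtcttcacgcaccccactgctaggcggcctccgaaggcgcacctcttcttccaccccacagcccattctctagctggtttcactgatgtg

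B2m held a response element core at -139 to -130, next to a pair of overlapping kappaB matches, GGGAAAGTCC and GGAAAGTCCC, and a TGACG at -78 to -74. In Psme1 the response element core lay just past the start site, at 10 to 19, as its reverse complement TTTCGCTTTC. These were the 2 of 8 genes with that core, which 3.44% of 32851 promoter windows of the same length held. Psmb8 held the single gamma-activated core, TTCCCAGAA at -97 to -89 (8.3% of all windows). A TGACG stood in 4 of 8 genes (20.8% of all windows), and a kappaB core in B2m alone (20.7%). Tap1 and Psmb9 are transcribed away from each other from a shared region on chromosome 17: their windows overlap by 275 bases, and the TGACG at -86 to -82 of Tap1 is also that of Psmb9. In the order of the chromosome, Psmb9, Tap1, Psmb8 and Tap2 are neighbours. A match describes the sequence and does not show that a factor binds there.

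The constitutive subunits that the inducible ones replace had mean differences of 0.078 to 0.14, and 0 of 3 passed. Their median of 0.13 was -0.034 without control replicate 1, 0.31 without control replicate 2, and 0.019, 0.22 and 0.016 without knockout replicates 1, 2 and 3. Psmb5, the chymotrypsin-like subunit, read 11.96, 11.51 and 11.92 in knockouts, against 11.61 and 11.83 in controls (difference 0.078, SE 0.21). Psmb6, with caspase-like activity, differed by 0.13 (SE 0.36) and Psmb7, with trypsin-like activity, by 0.14 (SE 0.18). Within each array the inducible value minus its constitutive partner gave the balance of the pair, compared between groups by an exact two-sided permutation test over arrays, whose smallest possible p is 0.1. Psmb8 minus Psmb5 averaged -1.93 ± 0.37 in knockouts (SD, n = 3) and -2.11 ± 0.49 in controls (SD, n = 2), a change of 0.18 (exact p = 0.7). For Psmb9 minus Psmb6 the change was 0.21 (exact p = 0.6), and for Psmb10 minus Psmb7 0.28 (exact p = 0.9). The Benjamini-Hochberg value over the 3 pairs was 0.9 for each. Knockout replicate 1 had the highest balance in every pair, 1.04 for Psmb10 minus Psmb7 against -0.63 to 0.10 in the other arrays.

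Other parts of the proteasome showed no call either. Of 11 remaining subunits of the 20S core, 10 averaged higher in knockouts, with a median of 0.11, and 0 passed. That median was -0.0060 without knockout replicate 1, -0.010 without control replicate 1 and 0.046 without knockout replicate 3, and it was 0.24 without knockout replicate 2 and 0.23 without control replicate 2. Psma7 differed by 0.18 (SE 0.27), Psmb2 by 0.17 (SE 0.17) and Psma1 by 0.11 (SE 0.16). The 19S regulator recognises ubiquitinated proteins, and its list held assembly chaperones such as Psmd10 beside subunits. The 20 measured genes of this list split 10 to 10 with a median of -0.0063. That median was 0.16 without knockout replicate 2 and -0.087 without knockout replicate 1. Psmd7, a subunit of the lid of the regulator, differed by 0.58 (SE 0.73) but ran from 8.52 in knockout replicate 2 to 10.86 in replicate 3. The base subunit Psmc6 differed by 0.15 (SE 0.18) and Psmd10, an assembly chaperone of the regulator, by 0.21 (SE 0.19). Both lists were at their lowest in knockout replicate 2, for 8 of 11 and 16 of 20 genes, as were 5218 of all 12813 genes; control replicate 1 was the lowest for 3 and 2 of them. Of 8 other activators and assembly factors, 4 averaged higher and 0 passed, with Psme3, the nuclear activator PA28 gamma, at 0.28 (SE 0.24). Psmf1, a proteasome inhibitor, differed by -0.064 (SE 0.24) and Pomp, which assembles the 20S core, by -0.044 (SE 0.25).

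Of the class I heavy chains, which present the loaded peptides, and class I-like genes, 12 of 23 listed genes had a probe set of their own, and 11 of these were tested. Their median difference was 0.14, 9 averaged higher and 0 passed. H2-K1, a classical heavy chain chosen after its values were seen, followed the array order of Psmb8. It read 13.32, 12.81 and 12.82 in knockouts, against 12.43 and 13.25 in controls. The classical heavy chain H2-D1, chosen in the same way, did not, with 13.24, 13.69 and 12.56 in knockouts, against 12.73 and 13.11 in controls. H2-T24, a non-classical member, had the smallest p of the list: 7.17, 7.16 and 7.35 in knockouts, against 6.86 and 6.44 in controls, a difference of 0.57 (SE 0.19) with groups that did not overlap (limma adjusted p = 1). Hfe, a class I-like regulator of iron uptake, differed by -0.45 (SE 0.36) and H2-Bl by 0.21 (SE 0.17). In this list 2 of 11 genes had groups that did not overlap, both higher in knockouts (2.68% of all genes). The other was the class I-like gene Mr1, which differed by only 0.040 (SE 0.13). Probe sets that the annotation gives to several heavy chain genes were not used here. Whether the probe sets read for H2-K1 and H2-D1 also pick up other near-identical heavy chains was not tested.

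The other genes of loading and trimming had a median of -0.075, with 10 of 14 averaging lower and 0 passing. Calr, the chaperone calreticulin of the loading complex, differed by -0.14 (SE 0.14), Ganab, a glucosidase that trims glycans before calreticulin binds, by -0.15 (SE 0.16), and Hspa5, the chaperone BiP, by 0.23 (SE 0.20). Calr was lower in every knockout array than in both controls (4.5% of all genes) and Hspa5 higher (2.68%).

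Among 26 measured regulators of class I transcription, the median difference was 0.040 and 0 passed. Ifngr1, a subunit of the interferon gamma receptor, read 9.94, 10.05 and 9.76 in knockouts, against 9.34 and 9.48 in controls, a difference of 0.51 (SE 0.16; limma adjusted p = 1). Its groups did not overlap. Rela, a kappaB subunit, differed by -0.31 (SE 0.16) and the interferon regulatory factor gene Irf7 by 1.37 (SE 0.71). The groups of Rela and Irf7 did not overlap either. In all, 2 of the 26 regulators were higher in every knockout array than in both controls (2.68% of all genes) and 1 was lower (4.5%). Irf1, a factor that binds response elements of class I genes and is named here after its values were seen, read 11.55, 10.65 and 10.43 in knockouts, against 10.18 and 10.86 in controls. As in the processing genes, knockout replicate 1 was the highest array and control replicate 1 the lowest.

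Interferon response genes outside the pathway were also mostly highest in knockout replicate 1, while their values in the other arrays were less uniform. Of 32 such genes, 30 were highest in knockout replicate 1, as were 8 of 9 processing genes. Control replicate 1 was the lowest for 11 of 32. In knockout replicate 2, 18 of 32 were above both controls, 11 below both and 3 between. Of the 9 processing genes, 2 were above, 1 below and 6 between. Over all 12813 genes, 3796 were above both controls in that array, 5727 below both and 3290 between. The groups did not overlap for 9 of 32, all higher in knockouts (2.68% of all genes), and for 0 of 9 processing genes. Their median difference was 0.68, and it was 0.18 without knockout replicate 1 and 1.15 without knockout replicate 2. Oasl2, an antiviral oligoadenylate synthetase-like gene, read 11.36, 9.38 and 8.96 in knockouts, against 7.54 and 8.84 in controls, a difference of 1.71 (SE 0.87), and Cmpk2, a mitochondrial nucleotide kinase, differed by 1.20 (SE 0.59). Whether the processing genes and this list differ in their response was not tested.

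Several features of the libraries moved beside these values. Knockout replicate 2 correlated with the other arrays at 0.945 to 0.970 across probe sets, against 0.977 to 0.990 for all other pairs, and its signal of 3′ over 5′ Actb probe sets was 3.85 against 4.90 to 5.21 elsewhere. Between groups this signal differed by -0.30 (exact permutation p = 0.9), and that of Gapdh by -0.14 (exact permutation p = 0.9). The 3 probe sets of Zbtb7a, the targeted gene, differed by -0.36 to 0.41, and which exons they lie in was not analysed here. Of the markers that the sort selected for, Kit and Slamf1 (CD150) were above the filter and Ly6a was not analysed here, and Cd48, Flt3 and Il7r, whose proteins were excluded by the sort, were above it too. Il7r read 9.35, 10.50 and 7.44 in knockouts, against 6.21 and 7.30 in controls, a difference of 2.34 (SE 0.98; limma adjusted p = 1) with groups that did not overlap. Kit and Slamf1 together had a summed linear intensity of 873 in knockout replicate 2, with 2866 and 3347 in the other knockouts, against 2538 and 4195 in controls. The stem cell markers (9 of 10 listed were measured, all above the filter) likewise summed lowest in knockout replicate 2, to 2569.6, with 13105 and 14544 in the other knockouts, against 9549.97 and 19557 in controls. All 14 macrophage markers were above the filter, and for 10 every knockout value was below both control values (4.5% of all genes). Their summed linear intensity was 7824 in knockout replicate 1, the array where the processing genes were highest, and 19350.3 to 19637 in the other knockouts. It was 43813 in control replicate 1, where 8 of the 9 processing genes were lowest, and 22549 in control replicate 2. Summed neutrophil markers (6 of 7 listed were measured, all above the filter) ranged from 30940.2 to 155965 in knockouts and from 71100.3 to 139998 in controls, again lowest in knockout replicate 1. Natural killer markers (6 of 7 measured) summed to 1995, 3199 and 1305 in knockout replicates 1 to 3, against 905 and 1512 in controls. Of these, 4 were above the filter, and Ncr1 and Eomes were not. Klrd1 and Gzma were higher in every knockout array than in both controls (2.68% of all genes), whereas Gzmb and Nkg7 overlapped. For Klrd1, knockout replicate 3 (5.14) and both controls (4.57 and 5.00) lay below the level at which the filter was set. Its separation in that array was therefore one between values near background. Erythroid sums (6 of 7 measured) were 36004 and 9750 in control replicates 1 and 2, and 21292 to 34422 in knockouts. Sums of dendritic and T cell markers overlapped between the groups. The part of these cells in the class I values was not tested. In bulk RNA, fewer cells of a type and less RNA per cell cannot be told apart.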

How the data were processed

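RNA of sorted LT-HSCs was measured on 5 Affymetrix arrays, 3 knockout and 2 control. The deposited table held log2 values per probe set, which per the submitters' processing notes the authors made with RMA (Affymetrix Expression Console). Versions and a genome build are absent from the sources used. By design, RMA removes a shift shared by most transcripts and compresses differences of dim probe sets. Per the labels' protocols, cRNA went through repeated in vitro transcription, which favours 3′ ends.

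Of 45101 rows, 64 Affymetrix controls were left out, and the 40% of the others with the lowest mean (below a log2 value of 5.77) were not tested. The platform annotation gave 34945 probe sets 1 symbol, 932 several and 9160 none; symbols were updated through Entrez IDs. The brightest single-gene probe set stood for a gene. limma 3.58.1 in R 4.3.3 (lmFit, eBayes, two-sided) compared the groups, with Benjamini-Hochberg adjustment over 27022 probe sets. The fit was checked on simulated data. The number of arrays limits the precision. Lists were described by counts and medians, with no set test. Figures used matplotlib 3.10.9.

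The genes and lists were chosen with earlier results of these data known. Named were all members, the 3 constitutive subunits, the 3 genes of smallest p in each other list, and the 8 genes nearest in profile. Alternatives tried were a trended robust prior in eBayes, the filter dropped or raised to 60%, cyclic loess, array weights, centring on medians, averaged probe sets of a gene, the replicate number as a block, and each array left out in turn.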

Additional observations from a re-analysis of the deposited data

How the results depend on the processing

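With each alternative, limma called 0 of the 9 processing genes and 0 probe sets in all. Their median difference was 0.27; it was 0.77 with array weights, 0.32 with cyclic loess, 0.14 when a gene's probe sets were averaged and 0.35 with the replicate block, and with 1 array removed it ran from -0.12 to 0.68. Whether the shared numbers pair the samples could not be tested: with 2 controls, whose deviations mirror each other, same-numbered pairs correlated at -0.54 and -0.57 and swapped ones at 0.54 and 0.57. Only knockouts have a replicate 3, so the replicate block equals leaving that array out. The block changed no call. Tap2, which differed by -0.021 in the reported fit, was 0.20 with array weights and 0.0075 with cyclic loess. Leaving out single arrays gave -0.20 to 0.72 for Psmb8, -0.19 to 0.87 for Psmb9, -0.010 to 0.85 for Psmb10, -0.12 to 0.68 for Psme1, -0.083 to 0.83 for Tap1, -0.49 to 0.44 for Tap2 and -0.56 to 0.73 for Nlrc5, whereas Tapbp (0.15 to 0.42) and B2m (0.049 to 0.32) kept their sign. The pair changes ran from -0.16 to 0.53 (Psmb8 minus Psmb5), -0.092 to 0.53 (Psmb9 minus Psmb6) and -0.18 to 0.66 (Psmb10 minus Psmb7). List medians ran from 0.032 to 0.36 for heavy chains, -0.18 to 0.085 for other loading genes, -0.16 to 0.23 for other activators and -0.0078 to 0.13 for regulators; array weights gave 0.034 for other loading genes and 1.74 for interferon response genes. The cause of these shifts was not tested. Where 1 control was left out, the remaining one was assumed to vary like the knockouts. With 5 arrays, the intervals of the processing genes still allow differences of 0.77 to 2.30 upward on the log2 scale. Downward they allow -0.28 (Tapbp) to -2.06 (Nlrc5).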

Other observations

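The median of genes of class II presentation, which load peptides from endosomes, followed another array order than that of the class I processing genes. Centred on 5 arrays, it was highest in knockout replicate 2 (0.86) and lowest in knockout replicate 3 (-0.61). Single genes were less distinct: H2-Eb1 had the array order of Tapbp and B2m, and 4 of 9 class II genes were highest in knockout replicate 1. Of 9 measured, 8 averaged higher in knockouts with a median difference of 0.40, and 0 passed (limma). That median was 0.051 without knockout replicate 2. It was 0.69 with knockout replicate 3 left out and 0.63 with control replicate 1 left out. H2-Eb1, a class II beta chain, read 9.76, 9.71 and 8.12 in knockouts, against 7.83 and 8.27 in controls (difference 1.15, SE 0.59). H2-Aa, an alpha chain, read 12.78, 12.34 and 10.72 in knockouts, against 10.91 and 11.09 in controls. H2-Ab1, its partner chain, differed by 0.91 (SE 0.67). In knockout replicate 2, 8 of the 9 class II genes were above both controls, as were 3796 of all 12813 genes. The linear intensities of B cell markers summed to 5674 in that array, 656 and 727 in the other knockouts, and 1059 and 864 in the controls; its part in the class II values was not tested.

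The 8 genes outside the set with the array profile nearest to the median of the processing genes were Camk2d, Sfrp1, Snapc3, Ppm1k, Atp10d, Parm1, Nmi and Utp14a, with root mean square distances of 0.085 to 0.14 on the log2 scale over 5 arrays. Nmi encodes an interferon-induced protein and read 10.45, 9.06 and 9.53 in knockouts, against 8.91 and 9.67 in controls. Camk2d, a calcium-dependent kinase, lay nearest, with 7.66, 6.91 and 7.07 in knockouts, against 6.51 and 7.24 in controls. Among the processing genes themselves, the distance ran from 0.041 for Psmb8 to 0.51 for Nlrc5. These distances are a description with no test.

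Within the interferon response list, knockout replicate 2 read above both controls for 18 of 32 genes and below both for 11. Over all 12813 genes these counts were 3796 and 5727. Mx1, an antiviral GTPase, read 7.30 there, above 5.47 and 6.32 in controls. Gbp6 and Iigp1, named after their values were seen, read 7.73 and 8.01 there. Both were below the controls, which read 8.12 and 8.94 for Gbp6 and 9.44 and 10.95 for Iigp1. Nlrc5 was also below both controls there, at 8.48 against 9.13 and 10.05.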
